A study of Homo sapiens with 6 samples.

Results

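The genes described here carry symbols of the MAGE, GAGE, XAGE, PAGE, SSX, CTAG, CT45 and CT47 families, most of which encode cancer-testis antigens. Members were taken by the letters at the start of the symbol, without pseudogenes and antisense RNAs, which gave 63 of 24432 symbols. Of these, 46 belong to germline-restricted families. Another 5 are the MAGED genes and MAGEF1, grouped as broadly expressed, although MAGED4 and MAGED4B stayed under 1 FPKM in every library here. A further 4 are other MAGE genes outside the germline-restricted families (MAGEE1, MAGEE2, MAGEH1, MAGEL2), of which MAGEL2 was listed at 0 in every library. The letters also drew in 6 CTAGE genes, the noncoding RNA MAGEA6-DT and SSX2IP, which encodes a binding partner of SSX proteins and is not an antigen of this class. The families were chosen by their difference in FPKM between resistant and sensitive libraries, seen in earlier results of these data, and the members were then taken by symbol. Their differences are therefore given as a description, without p-values.

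RNA was sequenced from PLC/PRF/5, an established cell line from a human liver cancer, in 2 groups of 3 libraries. Resistant libraries came from cells grown in rising lenvatinib, an oral drug against kinases such as the VEGF and FGF receptors, with a labelled start at 20 µmol/L, steps of 0.5 mmol/L and an end at 40 mmol/L, units that do not match. Sensitive libraries came from the untreated control cells, labelled WT. Only resistant libraries carry the drug label, so drug exposure and resistance cannot be told apart, and whether both groups derive from a single line was not tested. Nothing says that replicates were separate cultures, so the spread between them may be technical.

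Levels are FPKM, fragments scaled to transcript length and library size, so they are per length and can be set side by side between genes. For each of 11140 low genes (mean above 0 and below 1 FPKM), a unit was sought that divides its values evenly, called a step here. With a tolerance of 0.02 units, one was found for 99.8% of these genes. A gene above 0 in only 1 library always passes, so nothing is read from that share. Judged by the steps, the deepest and shallowest of the 6 libraries differed by 3.46% in depth. Sensitive replicate 3 stood apart from sensitive replicates 1 and 2 (Pearson's r of 0.9515 and 0.9643 across tested genes, against 0.9947 between the other two), and resistant replicates correlated at 0.9939 to 0.996. Between resistant and sensitive libraries, r was 0.6796 to 0.7064. Hepatocyte markers were present in sensitive libraries, and SERPINA1, the gene of alpha-1-antitrypsin, averaged 13.2 FPKM in resistant and 2252 FPKM in sensitive libraries. The albumin gene ALB was low in both, at means of 0.00741 FPKM in resistant and 3.21 FPKM in sensitive libraries. In bulk RNA, fewer cells with a transcript and less of it per cell cannot be told apart.

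Cancer-testis antigens are proteins made in germ cells and, in adults, hardly anywhere else, until tumours switch their genes back on. Most lie on the X chromosome and are kept silent in somatic cells by DNA methylation at promoters rich in CpG. MAGE proteins share a MAGE homology domain, through which they bind RING ubiquitin ligases and steer their targets. The MAGEA, MAGEB and MAGEC genes form the germline-restricted type, often re-expressed in liver cancer, whereas MAGED and MAGEF1 are active in many tissues.

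The promoter windows below, 250 bases before to 50 bases after the RefSeq start (GRCh38.p14), set 3 germline-restricted genes with high levels in sensitive cells beside the broadly expressed MAGEF1. Capitals mark CpG pairs, the targets of DNA methylation. Where RefSeq lists several starts, the window with the lowest coordinate is shown.
MAGEA4, chrX:151912224-151912523, plus strand: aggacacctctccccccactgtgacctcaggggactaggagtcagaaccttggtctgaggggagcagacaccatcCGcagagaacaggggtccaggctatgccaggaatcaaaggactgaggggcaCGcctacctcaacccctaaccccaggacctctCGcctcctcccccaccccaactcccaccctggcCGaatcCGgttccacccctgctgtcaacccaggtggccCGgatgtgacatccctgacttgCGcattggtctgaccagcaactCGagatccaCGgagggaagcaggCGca
MAGEA3, chrX:152698544-152698843, plus strand: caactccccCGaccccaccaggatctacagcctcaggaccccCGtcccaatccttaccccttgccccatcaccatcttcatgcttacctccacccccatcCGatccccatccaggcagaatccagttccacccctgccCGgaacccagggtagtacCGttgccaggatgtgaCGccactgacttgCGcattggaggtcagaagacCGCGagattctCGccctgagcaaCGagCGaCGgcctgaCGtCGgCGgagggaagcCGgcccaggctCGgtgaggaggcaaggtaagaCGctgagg
MAGEA12, chrX:152733507-152733806, plus strand: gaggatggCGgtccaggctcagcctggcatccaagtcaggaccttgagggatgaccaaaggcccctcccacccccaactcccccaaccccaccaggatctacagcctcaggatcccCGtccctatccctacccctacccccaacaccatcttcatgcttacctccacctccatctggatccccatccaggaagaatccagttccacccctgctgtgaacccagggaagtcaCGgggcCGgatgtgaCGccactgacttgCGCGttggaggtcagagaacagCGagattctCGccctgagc
MAGEF1, chr3:184712015-184712314, minus strand: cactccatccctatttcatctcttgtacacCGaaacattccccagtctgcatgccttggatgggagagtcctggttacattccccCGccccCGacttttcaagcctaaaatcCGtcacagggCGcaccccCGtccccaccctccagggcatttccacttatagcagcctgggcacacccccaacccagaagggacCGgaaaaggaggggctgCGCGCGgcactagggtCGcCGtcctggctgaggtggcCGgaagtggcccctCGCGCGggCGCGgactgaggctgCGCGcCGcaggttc

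These windows hold 10 CpG pairs for MAGEA4, 19 for MAGEA3, 9 for MAGEA12 and 21 for MAGEF1. The windows at the other RefSeq starts hold more, with 11, 13, 15 and 15 for MAGEA4 and 15 for MAGEA12. The window of MAGEA6, on the minus strand of the same chromosome, matched that of MAGEA3 in 300 of 300 bases. Those of MAGEA12 and MAGEA4 matched the MAGEA3 window in 54.1% and 49.1% of alignment columns, and that of MAGEF1 in 54.4%. The MAGEA12 window begins at a different point of sequence shared with MAGEA3, which lowers its percent. These percents therefore do not measure how alike the promoters are. Over the germline-restricted members with a RefSeq window (37 genes, 51 windows) the median was 13 CpG pairs, against 20.5 in 8 windows of the 5 MAGED and MAGEF1 genes and 14 in all 35116 windows. The string CCGGAA, taken here as the ETS core, contains a CpG pair and was searched on both strands. It occurred in 5 of the 51 germline-restricted windows, in 3 of the 8 MAGED and MAGEF1 windows and in 17.2% of all windows. In MAGEA3 and MAGEA6 it starts at base 138 of the window. The E2F core GCGGGA, searched the same way, occurred in 17 of the 51 and 5 of the 8 windows and in 26.9% of all, and neither motif contains the other. Only these exact strings were searched, so strings that differ by a letter, such as CCGGAT in the MAGEA4 and MAGEA12 windows, were not counted. A match is a description of letters only, and these shares do not measure how many ETS or E2F sites the promoters hold.

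Germline-restricted antigen transcripts were close to absent in resistant and abundant in sensitive libraries. Summed over the 46 genes, they came to 1.38, 5.08 and 2.01 FPKM in resistant replicates 1, 2 and 3, against 597.8, 644.5 and 649.1 FPKM in the sensitive ones. In 32 of the 46 genes all resistant libraries were listed at 0, against 7 genes with all sensitive libraries at 0, and 6 genes were at 0 in all 6 libraries. Every resistant library lay below every sensitive one for 22 of the 46, and above for 1. Over all symbols above 0 in any library, those shares were 27.2% and 28.9%. That base leaves out symbols at 0 in all 6 libraries, whereas the 46 include 6 such genes, which cannot separate. Of all 63 members, 28 were separated downward and 7 upward, and the 63 include 7 at 0 in all 6 libraries.

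MAGEA4, which binds the ubiquitin ligase RAD18 and is a target of engineered T cells, had the highest level of the group in every library. It stood at 0.741, 2.26 and 0.938 FPKM in resistant replicates 1, 2 and 3, against 284, 315 and 307 FPKM in the sensitive ones. The resistant mean of 1.31 ± 0.824 FPKM was 0.435% of the sensitive mean of 302 ± 16.0 FPKM (all errors of FPKM means are SD over n = 3 libraries). On the log2(FPKM + 1) scale the difference was -7.09 (SE 0.235), the ninth most negative of 11694 tested genes. In whole steps, MAGEA4 had 80, 245 and 102 in resistant and 31034, 34805 and 32766 in sensitive libraries, each step being 1 read or a fixed number of reads. Among all symbols it ranked between 9258 and 11194 in resistant libraries and between 171 and 199 in sensitive ones.

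MAGEA3 and MAGEA6 encode near-identical proteins that partner the ligase TRIM28. MAGEA6 had 0.0878, 0.771 and 0.174 FPKM in resistant libraries, against 90.5, 97.2 and 91.7 FPKM in sensitive libraries. MAGEA3 had 0.179, 0.730 and 0.0985 FPKM in resistant libraries, against 62.0, 66.2 and 70.9 FPKM in sensitive libraries. The groups were far apart for both, with log2 differences of -6.16 (SE 0.196) for MAGEA6 and -5.68 (SE 0.191) for MAGEA3. The MAGEA6 transcript shares 36.1% of its windows of 100 bases with MAGEA3 in GENCODE release 29, so how the authors' counting split their reads is uncertain, but their sum was likewise 0.680 ± 0.711 FPKM in resistant and 159 ± 6.06 FPKM in sensitive libraries.

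MAGEA12, another member of the same Xq28 cluster, had 0.143, 0.491 and 0.194 FPKM in resistant libraries, against 63.4, 66.9 and 74.7 FPKM in sensitive libraries (log2 difference -5.77, SE 0.146). MAGEA12 and MAGEA4 share no window of 100 bases with another gene. MAGEA10 had 0.0652, 0.130 and 0.0555 FPKM in resistant libraries, against 26.1, 29.8 and 16.6 FPKM in sensitive libraries (log2 difference -4.50, SE 0.215). Both were separated by group, and MAGEA10 was lowest of the sensitive libraries in replicate 3.

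MAGEA2 and MAGEA2B are copies that share nearly all of their sequence, 97.8% and 100% of windows. Their sum was 0.0112, 0.0894 and 0.0112 FPKM in resistant libraries, against 3.33, 3.57 and 4.42 FPKM in sensitive libraries, and MAGEA2B was listed at 0 in every resistant library. Taken singly, their log2 differences were -1.54 (SE 0.167) for MAGEA2 and -1.43 (SE 0.0850) for MAGEA2B. The other MAGEA genes in the files, MAGEA1, MAGEA9, MAGEA9B and MAGEA11, stayed below 1 FPKM in every library. MAGEA1 was listed at 0 in all resistant libraries and reached at most 0.0737 FPKM in a sensitive one.

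CTAG2, which encodes the antigen LAGE-1, had 0.0259, 0.283 and 0.0257 FPKM in resistant libraries, against 49.1, 50.7 and 63.3 FPKM in sensitive libraries (log2 difference -5.64, SE 0.158). The resistant values correspond to 1, 11 and 1 steps, against 1923, 2008 and 2424 steps in sensitive libraries. Its paralogs CTAG1A and CTAG1B, near-identical copies that encode NY-ESO-1, were listed at 0 in every resistant library and summed to 0.0656, 0.0649 and 0.238 FPKM in sensitive ones. CTAG2 thus held nearly all of the level of its family in sensitive libraries, and shares 26.8% of its windows with CTAG1A.

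The CT45 genes on Xq26 encode nuclear antigens of germ cells. CT45A10 had 0.0223, 0.0888 and 0.0222 FPKM in resistant libraries, against 8.76, 7.98 and 9.28 FPKM in sensitive libraries (log2 difference -3.21, SE 0.104). CT45A1 was listed at 0 in resistant replicates 1 and 3 and had 0.0244 FPKM in replicate 2, against 4.35, 3.72 and 3.23 FPKM in the sensitive libraries (log2 difference -2.23, SE 0.108). These copies share 63.4% and 84% of their windows with other genes, so their separate values are uncertain. The 6 CT45A genes together came to 0.0526 ± 0.0526 FPKM in resistant and 12.8 ± 0.611 FPKM in sensitive libraries.

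**Figure D1:**
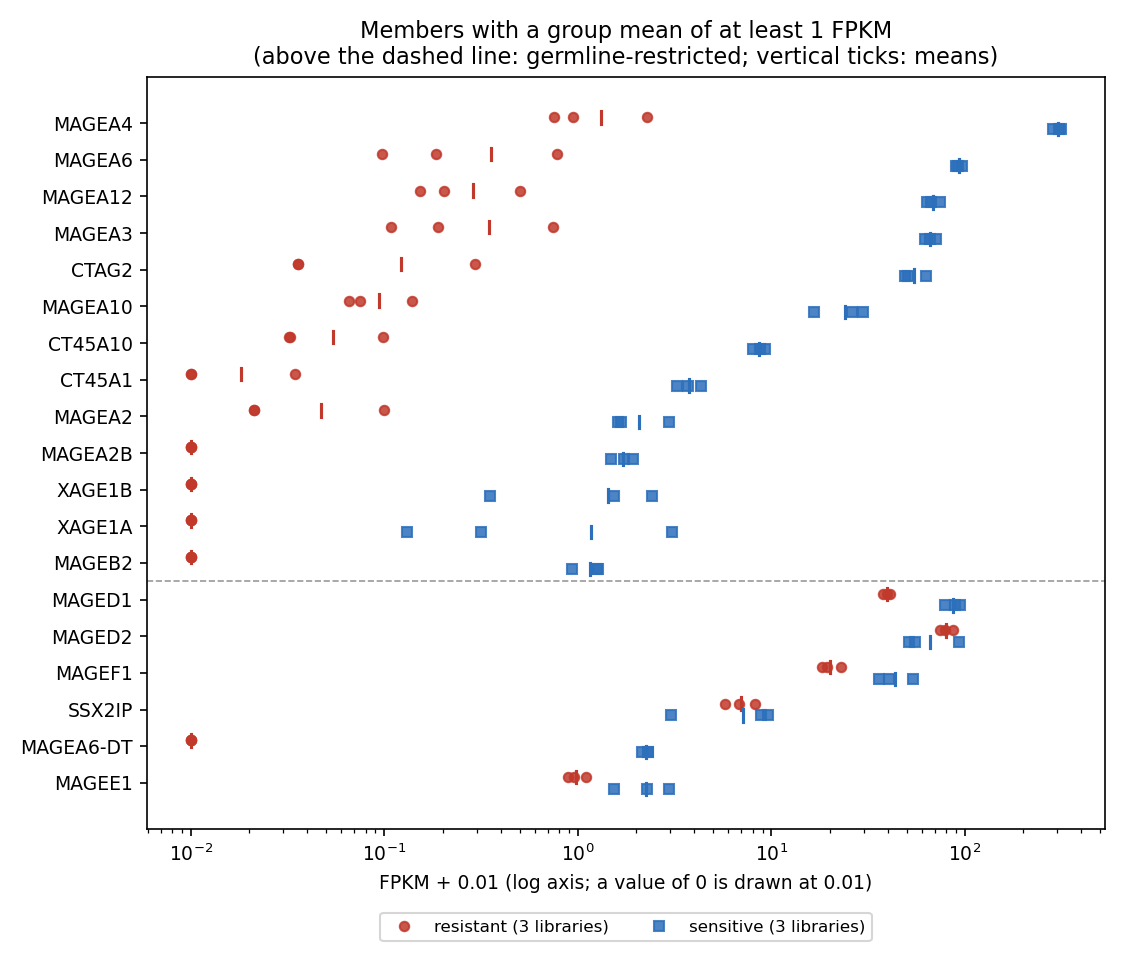
FPKM of the 19 members with a group mean of at least 1 FPKM, 1 point per library on a log axis after adding 0.01, with vertical ticks at the group means and germline-restricted genes above the dashed line. The 3 resistant points lie far left of the 3 sensitive ones for MAGEA4 (0.741 to 2.26 against 284 to 315 FPKM), whereas MAGED1, MAGED2 and MAGEF1 stay at 18.2 FPKM or more in all 6 libraries.

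Other germline-restricted genes were low in both groups. MAGEB2 was listed at 0 in the resistant libraries, against 1.25, 0.920 and 1.26 FPKM in the sensitive ones, and just missed the filter for testing of at least 1 FPKM in at least 3 libraries, which MAGEA2B just passed. XAGE1A and XAGE1B, copies with 100% of windows shared, were at 0 in the resistant libraries and summed to 2.71, 0.461 and 4.58 FPKM in the sensitive ones, which differed widely among themselves (2.58 ± 2.06 FPKM). MAGEC2, which like MAGEA3 works with TRIM28, had 0.0127 FPKM in resistant replicate 3 and 0 in the others, against 0.417, 0.538 and 0.621 FPKM in sensitive libraries. The 5 GAGE genes and the 2 SSX genes stayed at or below 0.125 FPKM in every library. All 8 MAGEB genes were listed at 0 in every resistant library, as were 3 of the 5 PAGE genes. In all, 44 members had no group mean of 1 FPKM or more, and no germline-restricted gene among them exceeded 0.416 FPKM in a resistant or 0.621 FPKM in a sensitive library. No member carries a CT47 symbol.

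MAGEC3 went the other way. It was the germline-restricted gene with every resistant library above every sensitive one, at 0.110, 0.199 and 0.416 FPKM in resistant libraries, while the sensitive ones were listed at 0. These levels correspond to 17, 31 and 65 steps. It did not pass the filter.

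In sensitive cells the germline-restricted genes formed a steep order of levels. MAGEA4 lay above MAGEA6 in every sensitive library, and MAGEA6 (90.5 to 97.2 FPKM) lay above MAGEA12 (63.4 to 74.7 FPKM). MAGEA12 and MAGEA3 (62.0 to 70.9 FPKM) overlapped in range, as did MAGEA3 and CTAG2 (49.1 to 63.3 FPKM). Within each of the 3 sensitive libraries, however, MAGEA12 lay above MAGEA3 and MAGEA3 above CTAG2, and these differences were not tested. MAGEA10 and then CT45A10 followed, each clear of the gene above it. Apart from MAGEA4 and MAGEA12, these genes share 14% (MAGEA10) to 63.4% (CT45A10) of their windows of 100 bases with other genes. Their places in the order therefore depend on how reads were divided. MAGEA4 made up 53.5%, 44.4% and 46.6% of the far smaller germline-restricted sum in resistant libraries, against 47.5%, 48.8% and 47.2% of the sum in sensitive libraries.

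The main broadly expressed genes kept 18.2 FPKM or more in every library. MAGED1, an adaptor of the neurotrophin receptor p75, had 39.5, 37.7 and 41.0 FPKM in resistant libraries, against 79.0, 88.4 and 94.6 FPKM in sensitive libraries. MAGEF1, which acts with the ligase NSMCE1, lies on chromosome 3 and had 19.3, 18.2 and 23.0 FPKM in resistant libraries, against 36.1, 40.4 and 53.8 FPKM in sensitive libraries. Neither gene overlapped between groups, at 45.1% and 46.4% of the sensitive mean and log2 differences of -1.13 (SE 0.105) and -1.06 (SE 0.173). MAGED2, which is needed for salt uptake in the fetal kidney, had 78.8, 74.3 and 86.9 FPKM in resistant libraries, against 51.3, 55.1 and 92.8 FPKM in sensitive libraries. Its groups overlapped through sensitive replicate 3, its log2 difference of 0.31 (SE 0.226) was not called, and without that library it was called higher at 0.58. MAGED4 and its copy MAGED4B were listed at 0 in resistant libraries and reached at most 0.355 FPKM in sensitive ones.

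Among the other genes, MAGEE1 of the dystrophin-linked complex had 0.879, 1.09 and 0.949 FPKM in resistant libraries, against 2.26, 2.94 and 1.53 FPKM in sensitive libraries (log2 difference -0.69, SE 0.169). MAGEH1 was below the filter, with 0.337, 0.458 and 0.634 FPKM in resistant libraries, against 0.158, 0.173 and 0.0179 FPKM in sensitive libraries. SSX2IP overlapped between groups (5.78, 6.78 and 8.20 FPKM in resistant, 9.56, 8.81 and 3.02 FPKM in sensitive libraries). Its log2 difference of 0.07 (SE 0.373) was not called, and without sensitive replicate 3 it was called lower (log2 difference -0.37). MAGEA6-DT, a noncoding RNA divergent to MAGEA6, was listed at 0 in the resistant libraries, against 2.30, 2.30 and 2.14 FPKM in the sensitive ones (log2 difference -1.70, SE 0.0729). The 6 CTAGE genes reached at most 0.670 FPKM in a resistant and 0.395 FPKM in a sensitive library, and 5 of them were higher in every resistant library than in every sensitive one. Of all symbols above 0 in any library, 28.9% were separated in that direction, and nothing is read from the 5. CTAGE6 rests on 4, 2 and 4 steps in resistant libraries, and sequence shared among the CTAGE genes was not measured.

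The filter left 16 of the 63 members in the fit of limma, where a gene was called at a Benjamini-Hochberg adjusted p under 0.05 over all tested genes. Of these, 14 were called lower in resistant libraries, none higher, and MAGED2 and SSX2IP were not called. Of all 11694 tested genes 67.7% were called, 32.5% lower and 35.2% higher. Every resistant library lay below every sensitive one for the same 14 members and above for none, against 35.1% and 39.3% of all tested genes. Since the members were proposed with this contrast known, and 10 of the 16 were under 1 FPKM in every resistant library and so passed only through the sensitive ones, nothing is read from that count. The 10 tested germline-restricted genes had a median log2 difference of -5.07 and were all called lower, the 3 tested MAGED and MAGEF1 genes had a median of -1.06 with 2 called lower, and all tested genes had a median of 0.08. Differences of -5 or below, which on this scale only genes high in sensitive libraries can reach, made up 0.539% of all tested genes. Of the germline-restricted genes, CTAG2, MAGEA3, MAGEA4, MAGEA6 and MAGEA12 were in that range. Their families were chosen by this difference, so nothing is read from their place there. The gap in size between the germline-restricted and the broad genes was not tested, because it is the contrast that the grouping was built on.

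**Figure D2:**
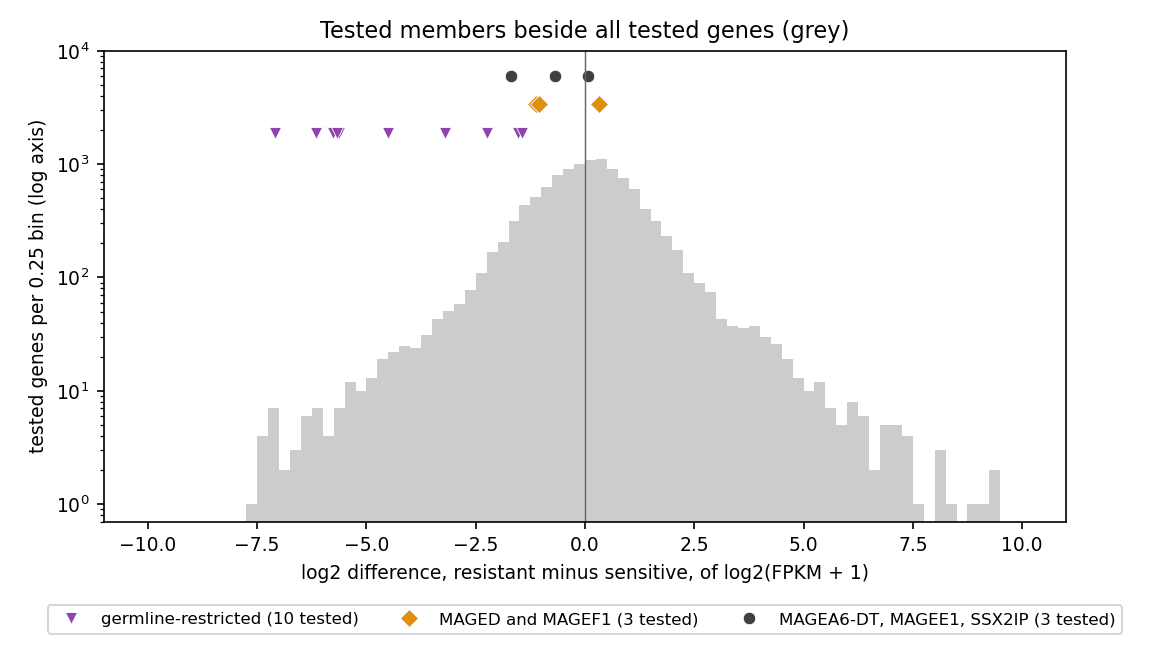
Number of tested genes (grey, log axis) by log2 difference of log2(FPKM + 1), resistant minus sensitive, with tested members drawn as markers above. The germline-restricted genes run from -7.09 to -1.43, the MAGED and MAGEF1 genes from -1.13 to 0.31, and the median of all 11694 genes is 0.08.

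Resistant replicate 2 held more of the germline-restricted transcripts than resistant replicates 1 and 3. For the 6 genes of at least 10 FPKM in sensitive cells, resistant replicates 1, 2 and 3 had a median of 0.227%, 0.733% and 0.208% of the sensitive mean, and resistant replicate 2 was the highest for all 6. The hepatocyte markers were lower too, and all 16 tested ones were called lower, against 32.5% of all tested genes. Of these 16, 8 were under 1 FPKM in every resistant library and so passed the filter only through the sensitive ones. The largest differences were those of AMBP, FGA, SERPINA1 and FGG (log2 differences -7.54, -7.50, -7.41 and -7.16). CEBPA kept more, at 10.8%, 9.39% and 9.31% of its sensitive mean in resistant replicates 1, 2 and 3. For 14 markers at the same minimum, the medians were 0.217%, 0.769% and 0.308%, and resistant replicate 2 was the highest for 12. Summed over the 17 markers in the files, the level was 22.8 to 54.2 FPKM in resistant and 5272 to 5459 FPKM in sensitive libraries, with TTR at 0 in every resistant library. The part of these markers in the members' levels was not tested. Without resistant replicate 2, the log2 difference of MAGEA4 was -7.36.

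**Figure D3:**
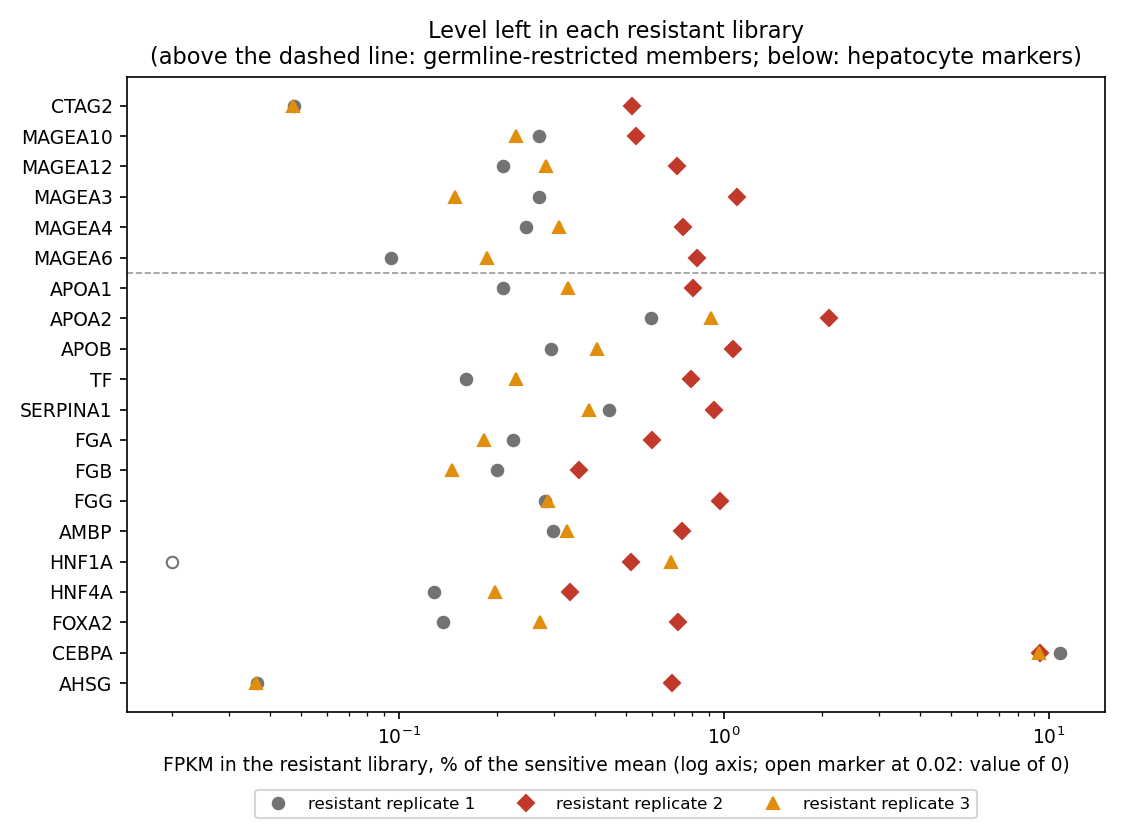
Level in each resistant library as a percent of the sensitive mean (log axis) for 6 germline-restricted genes, above the dashed line, and 14 hepatocyte markers, below it, with 1 marker shape per library. Resistant replicate 2 lies to the right for all 6 germline-restricted genes, at medians of 0.733% against 0.227% and 0.208%, and the CTAG2 points of replicates 1 and 3 rest on 1 step each.

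Markers of other cell types were mostly under 1 FPKM, with LYZ, ODF2, ACTA2 and PDGFRB as exceptions. Of the 13 germ cell markers in the files, 12 were under 1 FPKM in every library, and the summed level was 13.8 to 17.2 FPKM in resistant and 11.8 to 13.0 FPKM in sensitive libraries. ODF2, a centrosome and sperm tail protein also made in other cells, accounted for most of it, with 16.7, 14.8 and 13.6 FPKM in resistant and 11.4, 11.8 and 12.0 FPKM in sensitive libraries. It was called higher (log2 difference 0.33), a call lost under quantile normalization, under scaling to a geometric mean library and with the replicate block, and without resistant replicate 1, resistant replicate 2, sensitive replicate 1 or sensitive replicate 2. SOHLH2, a transcription factor of early germ cells, was at 0 in every resistant library, against 0.456, 0.601 and 0.342 FPKM in sensitive libraries. With no filter, 1 germ cell marker was called lower and 1 higher. Of the 7 leukocyte and blood markers, 6 were under 1 FPKM in every library and PTPRC was at 0 in all. CD79A of the B cell receptor overlapped between groups, at 0.0930, 0.139 and 0.0692 FPKM in resistant and 0.161, 0.113 and 0.329 FPKM in sensitive libraries. LYZ, which encodes lysozyme, had 0.480, 2.27 and 0.323 FPKM in resistant and 240, 238 and 249 FPKM in sensitive libraries (log2 difference -7.03), and the 7 summed to 0.608 to 2.45 FPKM in resistant and 238 to 251 FPKM in sensitive libraries. The 7 fibroblast markers summed to 2.35 to 3.46 FPKM in resistant and 0.938 to 1.81 FPKM in sensitive libraries, with ACTA2 called higher, at 2.77, 3.22 and 2.30 FPKM in resistant libraries and 0 in each sensitive one. PDGFRB, a receptor of fibroblasts and pericytes, went the other way, at 0.00445, 0.0354 and 0.00442 FPKM in resistant and 1.22, 1.09 and 0.526 FPKM in sensitive libraries, as did the collagen gene COL3A1, at means of 0.00616 FPKM in resistant and 0.312 FPKM in sensitive libraries. Neither passed the filter, and with no filter 2 fibroblast markers were called lower and 1 higher. The 5 endothelial markers stayed under 1 FPKM throughout, with sums of 0.200 to 0.348 FPKM in resistant and 0.120 to 0.185 FPKM in sensitive libraries. PECAM1 was lower in every resistant library (0.0208, 0.00345 and 0.00345 FPKM) than in any sensitive one (0.185, 0.112 and 0.0386 FPKM). VWF was higher in every resistant library (0.237, 0.273 and 0.169 FPKM) than in any sensitive one (0, 0.00282 and 0.00292 FPKM), and with no filter 1 endothelial marker was called higher. The part of these cell types in the members' levels was not tested.

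Position was not used by the rule, but most cancer-testis antigen genes lie on chromosome X. Of the 63 members, 54 lie there, including all 46 germline-restricted ones, a count that the choice of families largely fixed. Chromosome X as a whole did not share their direction. Of 365 tested X genes that are not members, 123 (33.7%) were called lower and 129 (35.3%) higher, against 32.4% and 35.2% of 11214 autosomal genes. Of genes of at least 10 FPKM in sensitive cells, 10 of 158 X genes that are not members (6.33%) and 151 of 4695 autosomal genes (3.22%) had a resistant mean under 2% of the sensitive mean, as did 3.42% of all 4878 such symbols. The 6 germline-restricted members at that level were all under 2% too, but they were chosen for this difference and picked here for a high sensitive level, so nothing is read from their count. The 10 other X genes include CSAG1, CSAG2 and SAGE1, cancer-testis genes whose symbols the rule does not cover, and GPC3, an oncofetal glypican of liver cancer.

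The MAGEA genes lie in a long stretch of Xq28 where the surrounding genes were mixed. In RefSeq gene order, 14 tested neighbours in a row, between MAGEA4-AS1 and MAGEA6-DT, were called lower, a run noticed after the values were seen. It holds 8 members, whose families were chosen by this difference, and 6 other genes. All of them but MAGEA4 were under 1 FPKM in every resistant library and so passed the filter only through the sensitive ones. Of all tested genes 32.5% were called lower, and nothing is read from the length of the run. MAGEA4-AS1, antisense to MAGEA4 and left out of the members, had 0, 0.0604 and 0.0604 FPKM in resistant libraries, against 15.3, 12.4 and 28.2 FPKM in sensitive libraries, and without a known strand setting its reads cannot be told from those of MAGEA4. GABRA3 and GABRE, GABA receptor subunit genes, were called lower too (log2 differences -2.24 and -1.24), as were CSAG1, CSAG2 and CSAG3. Beyond the run, ZNF185, which encodes an actin-binding LIM protein, was called higher, with 53.1, 48.1 and 47.1 FPKM in resistant and 1.15, 1.18 and 1.94 FPKM in sensitive libraries (log2 difference 4.39). Over the whole stretch, of 17 non-member genes that reached 1 FPKM in a library, MAGEA4-AS1 not counted, 6 were called lower, 4 higher, 6 not called and 1 was not tested. NSDHL, a cholesterol synthesis enzyme outside the run, was lower (log2 difference -0.64), TMEM185A, MAMLD1 and CD99L2 were higher (0.55, 1.19 and 1.02), and EOLA2, MTM1, MTMR1, HMGB3, VMA21 and CETN2 were not called. PNMA6A was at 0 in resistant libraries, against 1.42, 1.29 and 0.657 FPKM in sensitive libraries.

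**Figure D4:**
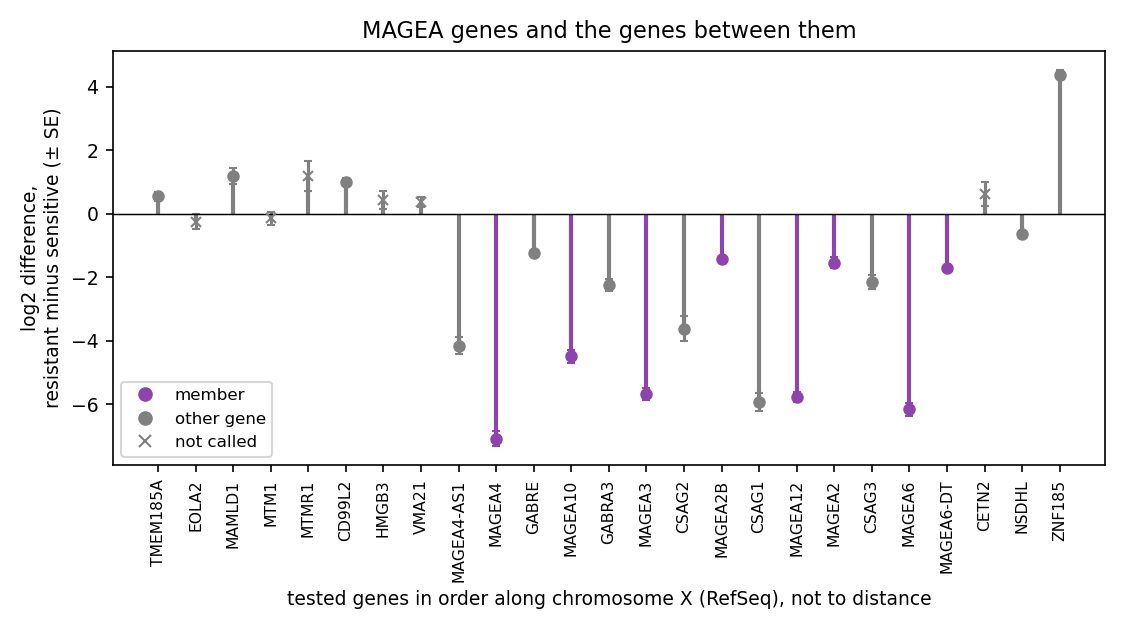
Log2 difference, resistant minus sensitive, ± SE for 25 tested genes in their order along chromosome X around the MAGEA genes, with members in purple, other genes in grey and crosses where a gene was not called. The 14 genes between MAGEA4-AS1 and MAGEA6-DT all lie below 0, and ZNF185 at the right end lies at 4.39.

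Other cancer-testis antigens were mixed. Of 57 such genes in the files from a list of known antigens outside the rule, 21 were tested. Of these, 8 were called lower, 6 higher and 7 not called, with a median log2 difference of 0.05. The shares of 38.1% lower and 28.6% higher compare with 32.5% and 35.2% of all tested genes, so nothing is read from the split. The list was not split into germline-restricted and broadly expressed genes. Of the 21, 5 (CSAG1, CSAG2, CSAG3, SAGE1 and PRAME) were under 1 FPKM in every resistant library. Another 2 (LY6K and IL13RA2) were under 1 FPKM in every sensitive one. The rest reached 1 FPKM in both groups, so the median mixes unlike genes. The 2 largest differences downward were those of CSAG1 (0.148, 0.944 and 0.147 FPKM in resistant libraries, against 69.8, 72.3 and 114 FPKM in sensitive libraries) and CSAG2 (0.0525, 0.0261 and 0 FPKM in resistant libraries, against 10.7, 6.25 and 22.5 FPKM in sensitive libraries), both inside the MAGEA cluster. LY6K, a surface protein with a GPI anchor, was higher, at 72.0, 64.4 and 68.1 FPKM in resistant libraries, against 0.00766, 0.00757 and 0.0313 FPKM in sensitive libraries (log2 difference 6.09). IL13RA2, an X-linked decoy receptor for interleukin 13, was higher as well, with 13.5, 17.04 and 16.6 FPKM in resistant libraries and at most 0.0193 FPKM in a sensitive one (log2 difference 4.05). PRAME, an antigen gene on chromosome 22 picked after its values were seen, was lower, at 0, 0.0733 and 0.00732 FPKM in resistant libraries, against 11.4, 12.5 and 10.0 FPKM in sensitive libraries.

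Most genes that work with MAGE proteins were expressed in both groups. The MAGE-domain genes outside the rule were NSMCE3, the MAGE subunit of the SMC5-SMC6 complex, called lower (2.58 ± 0.183 FPKM in resistant, 5.89 ± 1.92 FPKM in sensitive libraries), and TRO, at 0 in every resistant and below 0.02 FPKM in every sensitive library. Of 20 ligase partners and related genes in the files, 17 were tested, with 4 called lower, 3 higher and 10 not called. These shares were 23.5% lower and 17.6% higher, against 32.5% and 35.2% of all tested genes, and nothing is read from the split. TRIM27, the ligase that MAGEL2 binds, was at 18.4 ± 0.578 FPKM in resistant and 63.1 ± 7.84 FPKM in sensitive libraries (log2 difference -1.72), and PJA1, the partner of MAGED1, was lower by a log2 difference of -1.17. PRKAA1, the AMPK catalytic subunit that MAGEA3 and MAGEA6 mark for degradation, and the cullin CUL4A were higher, by 1.20 and 1.15 on the log2 scale. Without sensitive replicate 3, 9 genes of this list were called lower, without resistant replicate 2 there were 2, and 1 was called higher without resistant replicate 2 or resistant replicate 3.

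Regulators of germline gene silencing also went both ways. The list holds DNA and histone methylation enzymes, repressor complexes and the TET enzymes, which remove DNA methylation. Of its 35 genes in the files 31 were tested, with 9 called lower, 7 higher and 15 not called, and a median log2 difference of -0.01. These shares of 29% lower and 22.6% higher compare with 32.5% and 35.2% of all tested genes, so nothing is read from the split. One of the 7 called higher was TET3 (log2 difference 0.39), which is no silencer. The de novo methyltransferase DNMT3B had 1.67, 1.75 and 1.45 FPKM in resistant libraries, against 8.40, 9.94 and 4.63 FPKM in sensitive libraries (log2 difference -1.67). The histone H3K9 methyltransferase EHMT2 was at 3.58 ± 0.543 FPKM in resistant and 11.9 ± 0.984 FPKM in sensitive libraries (log2 difference -1.50), and MPHOSPH8 of the HUSH complex was lower by a log2 difference of -1.32. MAX, which with MGA forms a repressor of germline genes, was at 28.2 ± 1.05 FPKM in resistant and 10.1 ± 1.14 FPKM in sensitive libraries (log2 difference 1.39).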

How the data were processed

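Each library has a deposited table of gene symbols and values whose unit, FPKM, was inferred from their range. The authors had thus scaled them to transcript length and library size, and RPKM values could not be told from these. The submitters' processing notes name cutadapt for trimming and HISAT2 for alignment. The versions, counting program, genome build, annotation and strand setting were not given in the sources used here.

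Groups and replicate numbers came from the sample titles. Symbols were matched to RefSeq (GRCh38.p14), 23056 by symbol and 262 by synonym, with 1114 unmatched. All 6 libraries were fitted by group, with no block, in limma 3.58.1 (limma-trend, R 4.3.3) on log2(FPKM + 1), a pseudocount of 1 that understates fold changes of low genes. Tested genes had 1 FPKM or more in 3 or more libraries, with Benjamini-Hochberg adjustment over all of them. The fit was tried on simulated data whose spread came from the resistant libraries only, so the wider spread of the sensitive ones was not covered. Summaries and figures used Python 3.11.15, pandas 2.3.3, numpy 2.4.6, matplotlib 3.10.9 and Biopython 1.88.

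Members, lists and tests were chosen with earlier results of these data known. Values per library are given for members whose mean reached 1 FPKM in a group. Lists are shown by up to 4 called genes by size (or, with fewer than 2 called, the 2 of highest mean), and neighbours of MAGEA genes where a library reached 1 FPKM. ALB, TTR, CEBPA, COL3A1, TET3, PTPRC, PRAME, GPC3, SAGE1 and the low members given by value were named outside this rule, after their values were seen. Read numbers recovered from the steps were not tested. A listed 0 may be a failed estimate and gets no fold. No nonzero value was identical between libraries. The alternatives were 2 other scalings (quantile normalization and a geometric mean library), no filter, a filter on the mean at 5 FPKM, a pseudocount of 0.1, limma without the trend, robust limma-trend, the replicate block, and each library left out on the same genes.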

Additional observations from a re-analysis of the deposited data

How the results depend on the processing

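Over 14 alternatives, 216 of 218 values of the 16 tested members kept their side of the threshold. The exceptions were MAGED2 and SSX2IP without sensitive replicate 3, called at 0.58 and -0.37. SSX2IP changed sign in 3 alternatives, and no other member did. All 10 germline-restricted genes were called lower each time a library was left out, with a median between -5.14 and -5.01, and the count of members called higher was 0 to 1. With no filter, members called higher numbered 4, germline-restricted genes called lower 16 and called higher 1, since more low genes were tested. A mean of at least 5 FPKM left 4973 of all genes, 8 members and 6 germline-restricted genes called, with a median of -5.73, as fewer genes were tested. A pseudocount of 0.1 put that median at -7.28, since a smaller pseudocount widens the differences of low genes. Among the other lists, no filter gave 13 other antigens called lower. Replicate numbers did not pair the libraries (correlations of deviations of -0.422, 0.072 and -0.228), and with the replicate block 7193 genes were called in place of 7920, with 10 germline-restricted genes lower as before. Values under about 0.1 FPKM rest on a few steps, and genes with shared sequence are limited by how reads were divided.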
